A study of Ambystoma mexicanum with 18 samples.

Results

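Tig1 was compared with a point mutant of itself, Tig1P155A, in cells of the regenerating axolotl limb that were sorted for a distal reporter. The aim was to see how large a difference the mutation can make to any gene or gene family. The 12 libraries of cells that overexpress a form of Tig1 were used, of 18 in the series. They fell into 3 libraries of Tig1P155A cells and 3 of Tig1 cells at 3 days post electroporation (dpe), and 3 of Tig1P155A cells and 3 of Tig1 cells at 8 dpe. All cells came from blastemas of the Hoxa13:mCherry line, in which mCherry is made from the Hoxa13 locus and marks the distal part of the blastema, and all blastemas were electroporated with a plasmid once the mCherry domain was visible. The plasmids encoded Tig1P155A or Tig1 followed by T2a and GFP, and cells positive for mCherry and GFP were sorted. The 6 control libraries, 3 at each time, held mCherry-positive, GFP-negative cells of the electroporated blastemas, so that a GFP plasmid without Tig1 was not part of the comparison. Blastemas were pooled for each condition before 300 cells were taken for each Smart-seq2 library, which the study calls biological replicates. Whether each library of a group had a pool of its own is not given in the sources used here, and the p-values and intervals below measure the spread between these libraries. Differences are Tig1P155A minus Tig1 on the log2 scale, taken within each time and then averaged over both.

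Tig1 (RARRES1 in mammals) is a retinoid-induced membrane protein whose extracellular part resembles latexin, a protein that inhibits carboxypeptidases of the metallo class. In human cells RARRES1 has been linked to AGBL2, an enzyme that trims the tails of tubulin, through this domain. P155A puts an alanine in the place of a proline of the latexin domain. In the limb blastema, proximal and distal cells differ in surface proteins such as Prod1 and in transcription factors such as Meis and Hox, and Tig1 has been studied as a determinant of proximal identity.

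The 12 libraries held between 9732514 and 22482622 counts each. Mitochondrial 16S rRNA took 13.4 to 58.1% of the counts of a library, the count outside mitochondrial genes was 4469274 to 17577860, and 13901 to 16363 genes reached 1 CPM, a count scaled to the size of its library. A gene with 3 counts stood at 0.115 to 0.455 CPM, depending on the library, which is the level below which a value cannot be told from 0. Counting error only is covered by such a floor. Correlations of the libraries of a group were 0.831 to 0.957, and those between the forms were 0.878 to 0.969 at 3 dpe and 0.827 to 0.974 at 8 dpe. The range between the forms thus overlapped that between replicates of a form. The sort for mCherry was set against markers of other cells. HoxA13 itself was at 2.194 to 40.4 CPM in the libraries of both forms, against 77.1 to 116 CPM in control cells. PTPRC, the leukocyte surface phosphatase, was at 230 to 391 CPM in Tig1P155A cells and 191 to 380 CPM in Tig1 cells, against 0 to 8.57 CPM in control cells, and the summed level of the 21 tested myeloid markers was 5765 to 13715 CPM in Tig1P155A cells and 5313 to 10229 CPM in Tig1 cells, against 16.4 to 138 CPM in control cells. At 3 dpe the sum lay at 11046 to 13715 CPM in Tig1P155A cells and 9610 to 10229 CPM in Tig1 cells, which did not overlap, and at 8 dpe the forms overlapped. The part of such cells in the results below was not tested, and in bulk libraries fewer cells of a type and less RNA per cell cannot be told apart.

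Of 25377 genes tested, LGR6 alone passed an adjusted p of 0.05 at 3 dpe (edgeR quasi-likelihood test, 0.00394% of the genes), 0 genes passed at 8 dpe (0%) and 0 passed for the average of both times (0%). The change of the difference between times was called for 1 gene, again LGR6 (0.00394%). An unadjusted p under 0.05 was found for 1503 genes at 3 dpe (5.92%), 1169 at 8 dpe (4.61%), 1756 for the average (6.92%) and 1235 for the change between times (4.87%). For the average, limma voom called 0 genes and DESeq2 70, of which 64 were lower in Tig1P155A cells. At 8 dpe voom called 0 genes and DESeq2 23. Without the filter on low counts, 44224 genes entered the fit, and edgeR called 432 genes at 3 dpe, 226 at 8 dpe and 512 for the average, 485 of them lower in Tig1P155A cells. The count of calls thus depended on the filter and on the tool. Of the 512 genes, 237 averaged 4 CPM or more.

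The unadjusted p fell unevenly. Of the 1756 genes, 327 were higher in Tig1P155A cells (1.29%) and 1429 were lower (5.63%). Among genes with 4 CPM or more, the split was 128 higher and 293 lower. Over all genes tested, the lower share stayed the larger in every fit. It ran from 53.7% without replicate 1 of Tig1 at 3 dpe to 86% with scaling by library size alone. Among genes with 4 CPM or more, the split depended on single libraries. Without replicate 1 of Tig1 at 3 dpe, 481 of these were higher and 241 lower, and without replicate 2 of Tig1 at 8 dpe 343 were higher and 303 lower. With scaling by library size alone 22 were higher and 198 lower, and with voom the lower share was 50.4% against 69.6% in the fit used here.

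What the data bound is the size of the difference. A 95% interval was computed for each gene, for that gene alone and with no adjustment for the number of genes. Of 11409 genes that averaged at least 4 CPM over the 12 libraries, 7112 had an interval of the average difference that lay wholly within 2-fold either way (62.3%). Over all genes tested, the number was 7185 (28.3%). A limit of 1.5-fold held 1873 of the 11409 (16.4%), and a limit of 4-fold held 10768 (94.4%). In an equivalence test adjusted over all genes, 5978 of the 11409 passed at 2-fold (52.4%) and 0 passed at 1.5-fold. The median size of the average difference was 0.192 on the log2 scale, and the median distance from an estimate to the end of its interval was 0.639, or 1.56-fold. At a single time that distance was 0.904 at 3 dpe and 0.902 at 8 dpe, or 1.87-fold, and the equivalence test passed 0 genes at 2-fold at either time.

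The bound followed the level of the gene. Genes of 1 to 4 CPM were held within 2-fold in 1.66% of cases and those of 4 to 16 CPM in 37.8%. From 16 to 64 CPM the share was 80.9%, from 64 to 256 CPM 86.9%, and at 256 CPM or more 81.7%. Genes under 1 CPM were never held within 2-fold, with a median distance of 3.31 on the log2 scale, so for a receptor or transcription factor of low level these libraries leave even a large difference undetected.

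**Figure D1:**
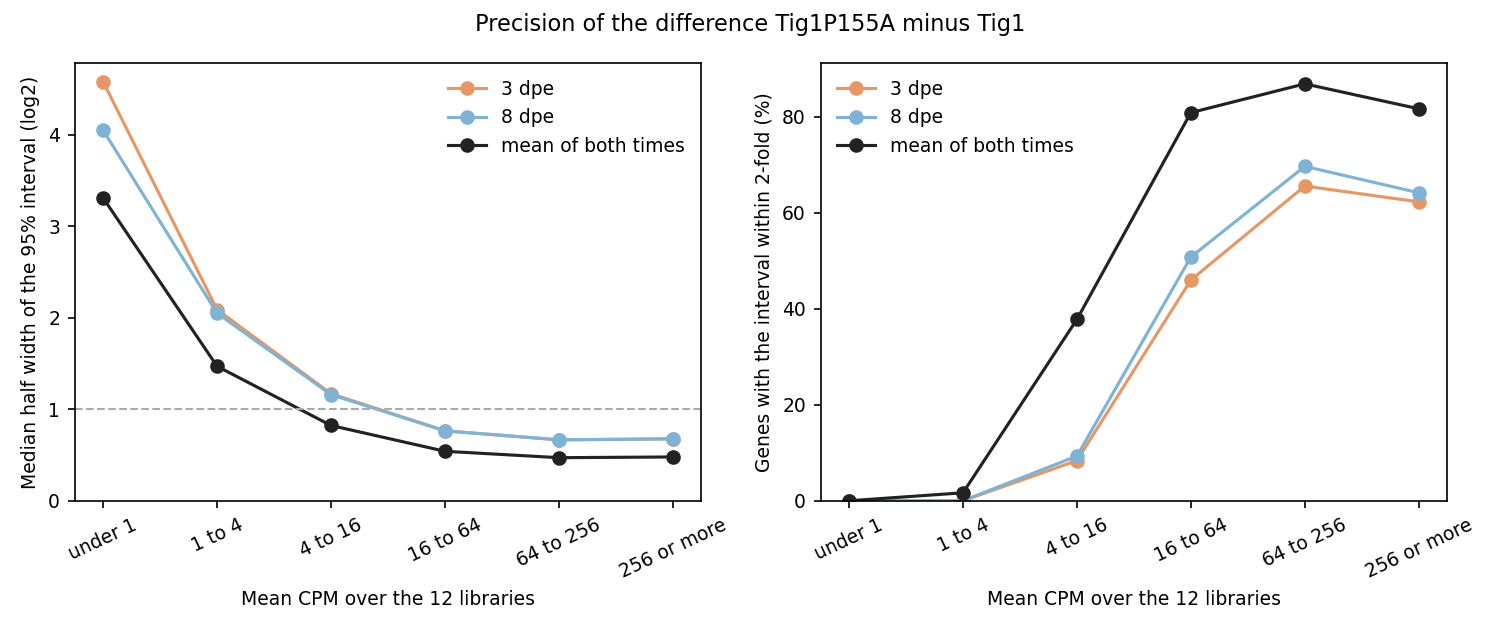
Precision of the difference between Tig1P155A and Tig1 cells by mean level of the gene in CPM, as the median distance from the estimate to the end of its 95% interval (log2) and as the percentage of genes whose interval lies within 2-fold, for the average and for each time. The percentage for the average is 0 under 1 CPM and 86.9 at 64 to 256 CPM.

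The overexpressed gene was checked first. RARRES1 (AMEX60DD001823, chromosome 10p from 881792072 to 881958443 in AmexG_v6.0-DD) had 267.5, 329.8 and 272.6 CPM in Tig1P155A cells and 513.9, 426.8 and 183.4 CPM in Tig1 cells at 3 dpe. In the libraries of 8 dpe, it had 150.9, 301.0 and 293.7 CPM in Tig1P155A cells and 174.5, 342.7 and 294.1 CPM in Tig1 cells. Control cells had 2.847 to 8.81 CPM, so every library of either form stood far above every control library, and the forms overlapped at both times. The average difference was -0.25 (95% interval -0.88 to 0.39), which leaves room for at most 1.84-fold. The plasmid and the endogenous transcript add to the same count, and a count per gene does not show which codon the RNA carried. The values therefore check that Tig1 RNA was overexpressed in cells of both forms, to a level alike within 2-fold for the average only. They do not check which form a library held.

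Latexin itself did not pass the test. LXN (AMEX60DD036452, chromosome 4q from 1143730099 to 1143836509), the inhibitor that gives the domain its name, had 112.7, 89.27 and 75.1 CPM in Tig1P155A cells and 71.71, 47.18 and 84.5 CPM in Tig1 cells at 3 dpe. The values at 8 dpe were 53.43, 59.7 and 66.39 CPM in Tig1P155A cells and 32.78, 59.03 and 34.84 CPM in Tig1 cells. The groups overlapped at both times, through replicate 3 of Tig1 at 3 dpe and replicate 2 of Tig1 at 8 dpe. The average difference was 0.47 (0.02 to 0.92, edgeR adjusted p = 0.697), and a difference above 1.90-fold lies outside its interval. Both forms stood above control cells, which had 6.796 to 15.8 CPM.

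Carboxypeptidases, of which latexin inhibits those of the metallo class, and the enzymes that add or remove amino acids at the tails of tubulin were taken as a family. Of 39 genes listed 31 were in the table, 25 were tested and 15 averaged 4 CPM or more. None of the 25 had an unadjusted p under 0.05, where 1.29% of all genes were higher and 5.63% lower at that threshold. The smallest unadjusted p of the 15 was 0.0578 in the edgeR test. The median difference of the 15 was 0.0169, beside 0.00282 over all genes of that level. Of the 15, 6 were held within 2-fold, or 4 in a fit of the 12 libraries of the forms alone.

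CPD, a carboxypeptidase of the secretory pathway, was the most tightly bounded. It had 70.62, 65.37 and 55.0 CPM in Tig1P155A cells and 62.11, 76.77 and 57.63 CPM in Tig1 cells at 3 dpe, and 63.98, 69.9 and 59.47 CPM against 55.94, 73.55 and 54.06 CPM at 8 dpe. The forms overlapped at both times and the average difference was 0.02 (-0.37 to 0.40), which allows at most 1.32-fold. Outside the metallo class, SCPEP1, a lysosomal serine carboxypeptidase, allowed 1.64-fold and CPVL, a related serine carboxypeptidase, 1.57-fold.

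Among the enzymes of tubulin tails, VASH2, which removes the terminal tyrosine of alpha-tubulin, had 30.39, 39.07 and 35.0 CPM in Tig1P155A cells and 24.22, 13.05 and 14.7 CPM in Tig1 cells at 3 dpe. By 8 dpe it had 39.67, 25.56 and 51.06 CPM in Tig1P155A cells and 25.2, 47.51 and 48.81 CPM in Tig1 cells. Its groups were apart at 3 dpe and overlapped at 8 dpe, with an average difference of 0.47 (-0.02 to 0.96). TTLL12, of the tubulin tyrosine ligase-like family, differed by 0.08 and allowed at most 1.48-fold. AGBL2 itself was not among the family members that averaged 4 CPM or more, and no bound is given for it here. AGTPBP1 and AGBL5, deglutamylases of the same enzyme family as AGBL2, differed by 0.51 (-0.12 to 1.13) and 0.62 (-0.15 to 1.39), and TTL, which puts the tyrosine back, by -0.12 (-0.94 to 0.70). The loosest bound was that of CPA6, a secreted carboxypeptidase of low level, at -0.97 (-2.41 to 0.48), or 5.32-fold.

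**Figure D2:**
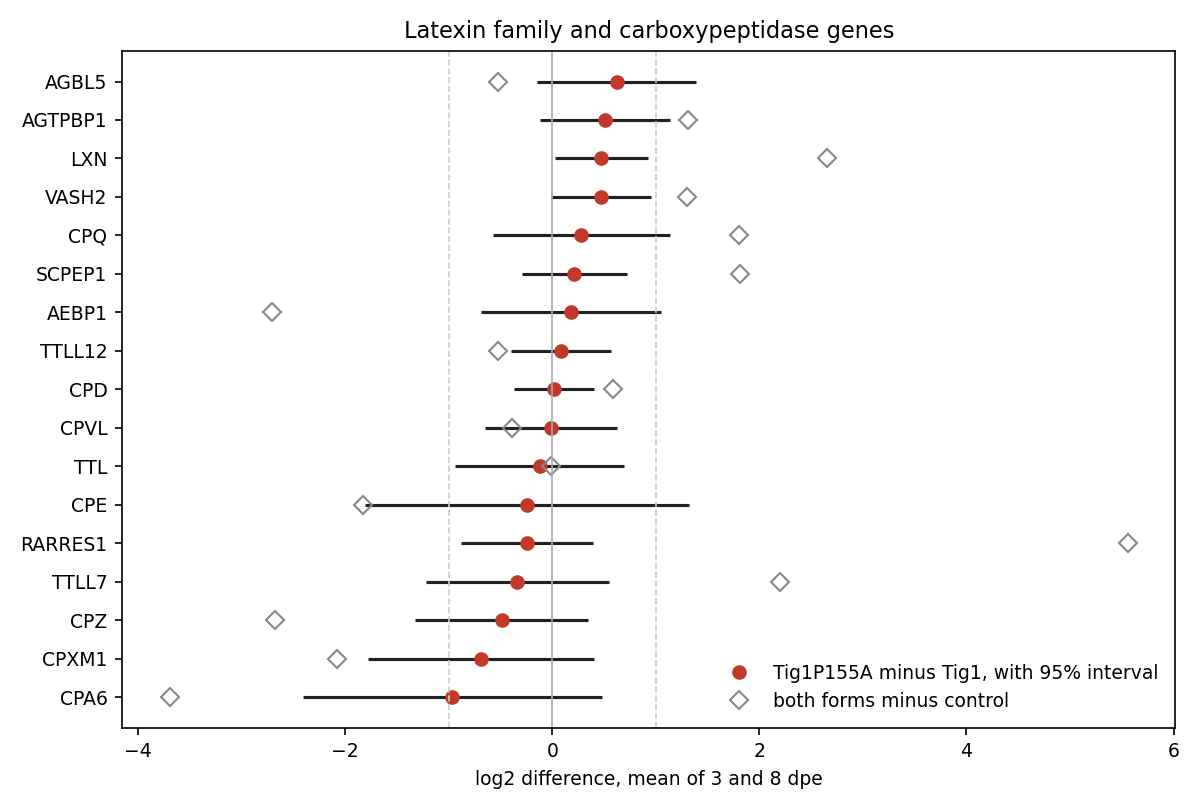
Average log2 difference, Tig1P155A minus Tig1, with its 95% interval for RARRES1, LXN and the 15 carboxypeptidases and tubulin tail enzymes that averaged 4 CPM or more. Every carboxypeptidase interval includes 0, from 1.32-fold at CPD to 5.32-fold at CPA6.

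LGR6 (AMEX60DD008622, chromosome 13p from 71863846 to 72130313), a receptor for R-spondins that potentiates Wnt signalling, was the gene called, lower in Tig1P155A than in Tig1 cells at 3 dpe. At 3 dpe it had 1, 2 and 1 counts in the libraries of Tig1P155A cells and 53, 12 and 70 counts in those of Tig1 cells. The latter were 2.292, 1.821 and 5.915 CPM, also below the 9.401, 9.763 and 16.17 CPM of control cells at 3 dpe. At 8 dpe the level was 14.1, 16.4 and 7.68 CPM in Tig1P155A cells and 12.9, 5.47 and 6.79 CPM in Tig1 cells, and control cells had 9.40 to 17.6 CPM over both times. The forms were thus apart at 3 dpe and overlapped at 8 dpe. Pooled at 3 dpe, 4 counts stood against 135, and the ratio of Tig1 over Tig1P155A cells was 41.8 (exact counting interval 15.9 to 156, which covers counting error only). The fitted difference was -5.31 ± 0.737 (SE, n = 3 each, edgeR adjusted p = 0.00832) at 3 dpe and 0.60 at 8 dpe, and the change between times was 5.91 ± 0.886 (adjusted p = 0.0356). For the average it was -2.36 (adjusted p = 0.573), which DESeq2 called (adjusted p = 0.00175) and edgeR called with every gene of at least 1 count (0.000664), and which was not called in 7 of the 9 alternatives that kept all libraries of the forms. The call at 3 dpe was lost without replicate 1, 2 or 3 of Tig1P155A at 3 dpe (adjusted p = 0.106, 0.0760 and 0.215), in a fit of the 12 libraries alone (0.197) and with voom (0.566), with the difference between -5.6 and -4.62 in every fit that left out a library. The call for the change between times was lost in 8 of the 12 such fits and in 4 of the 9 alternatives that kept all libraries of the forms.

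The 10 genes of at least 4 CPM with the smallest p in each direction were examined for the average of both times, and none passed the test. Their edgeR adjusted p lay between 0.573 and 0.690. These genes were picked by p in the same libraries. Intervals clear of 0 and forms that stand apart therefore follow in part from the choice, and neither is further support for a difference. The share of all genes whose forms stood apart is not given here. Those lower in Tig1P155A cells were LGR6, IGFBP1, PRG4, HBS1L, ACTB, TBX15, SYTL2, BUB1, TRPS1 and LANCL2. IGFBP1 (chromosome 5p from 836943810 to 836971602), a secreted binding protein of insulin-like growth factors, had 1.274, 0.4799 and 1.326 CPM in Tig1P155A cells and 14.79, 13.81 and 5.239 CPM in Tig1 cells at 3 dpe. For 8 dpe the values were 1.72, 3.366 and 5.724 CPM in Tig1P155A cells and 17.14, 5.071 and 5.38 CPM in Tig1 cells. The forms were apart at 3 dpe and overlapped at 8 dpe, and control cells had 23.93 to 41.46 CPM at 3 dpe and 2.068 to 14.5 CPM at 8 dpe. The average difference was -2.40 ± 0.485 (-3.42 to -1.38, edgeR adjusted p = 0.690), while DESeq2 gave an adjusted p of 0.00137. Of these 10 genes lower in Tig1P155A cells, DESeq2 also called LGR6, HBS1L (adjusted p = 0.0155), SYTL2 (0.0155), LANCL2 (0.03), ACTB (0.0343) and TBX15 (0.0357).

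HBS1L, a factor that rescues stalled ribosomes, was lower in all libraries of Tig1P155A cells than in any of Tig1 cells at each time. It had 9.1, 9.551 and 7.551 CPM in Tig1P155A cells and 14.66, 24.58 and 17.49 CPM in Tig1 cells at 3 dpe, and 6.994, 12.94 and 11.99 CPM against 26.53, 13.44 and 15.76 CPM at 8 dpe. The average difference was -0.95 (-1.45 to -0.46). TRPS1, a GATA-type repressor of the skeleton and hair, had 7.553, 12.33 and 12.24 CPM in Tig1P155A cells and 21.41, 17.45 and 29.58 CPM in Tig1 cells at 3 dpe. At 8 dpe the groups were 23.51 to 32.24 CPM and 25.5 to 54.68 CPM and overlapped, and the average was -0.85. LANCL2, an abscisic acid-binding LanC-like protein, averaged -0.71. TBX15, a limb and skeletal T-box factor, averaged -2.18 from values under 4 CPM in all libraries of Tig1P155A cells.

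SYTL2, a synaptotagmin-like protein of vesicle traffic, PRG4, which encodes lubricin, and the gene model with the symbol ACTB rested on few counts at 3 dpe. There SYTL2 had 0, 3 and 0 counts in Tig1P155A cells and 120, 34 and 29 in Tig1 cells. PRG4 had 0, 2 and 0 counts in Tig1P155A cells and 0, 0 and 653 in Tig1 cells, so that a single library carried it, and 0, 1 and 0 against 54, 16 and 5 counts at 8 dpe, where the forms were apart. For the ACTB model (AMEX60DD025721) the counts were 1, 1 and 2 in Tig1P155A cells and 81, 5 and 3 in Tig1 cells at 3 dpe. Its level at 8 dpe was 19.61, 18.99 and 10.64 CPM in Tig1P155A cells and 33.63, 23.83 and 24.85 CPM in Tig1 cells, so the forms were apart at both times. Reads of other actin genes may be split between models.

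Those higher in Tig1P155A cells were MKNK2, UBE2J2, MARK4, ADM, NGFR, DUS2, SPEN, SH3BP5L, AHR and PEX5. MKNK2, a kinase that phosphorylates the cap-binding factor eIF4E, had 60.52, 43.72 and 34.69 CPM in Tig1P155A cells and 26.81, 28.98 and 23.83 CPM in Tig1 cells at 3 dpe. Later, at 8 dpe, it had 46.67, 35.61 and 30.47 CPM in Tig1P155A cells and 26.47, 25.9 and 16.01 CPM in Tig1 cells. The forms were apart at both times, with an average of 0.76 (0.33 to 1.19). UBE2J2, a ubiquitin-conjugating enzyme of the endoplasmic reticulum, was apart at both times as well. It had 21.84, 18.96 and 19.03 CPM against 9.904, 7.586 and 13.6 CPM in Tig1 cells at 3 dpe, and 16.51, 12.15 and 20.52 CPM against 6.737, 11.67 and 9.607 CPM at 8 dpe, with an average of 0.88 (0.36 to 1.39).

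MARK4, a kinase of microtubule-associated proteins, averaged 0.75 (0.31 to 1.18) and overlapped at 8 dpe. ADM, the vasodilator peptide adrenomedullin, was apart at both times. It had 5.096, 3.792 and 8.826 CPM in Tig1P155A cells and 3.719, 1.972 and 3.634 CPM in Tig1 cells at 3 dpe, and 12.96, 10.15 and 8.375 CPM against 1.744, 5.858 and 2.818 CPM at 8 dpe, with an average of 1.25 (0.46 to 2.04). PEX5, the import receptor of peroxisomes, differed by 0.69 and was also apart at both times. AHR, the aryl hydrocarbon receptor, differed by 0.67, SPEN, a transcriptional corepressor, by 0.87 and DUS2, a tRNA dihydrouridine synthase, by 0.90. NGFR, the low-affinity neurotrophin receptor, had 1, 9 and 0 counts in Tig1P155A cells and 0, 0 and 0 in Tig1 cells at 3 dpe, and no fold is given for it there.

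**Figure D3:**
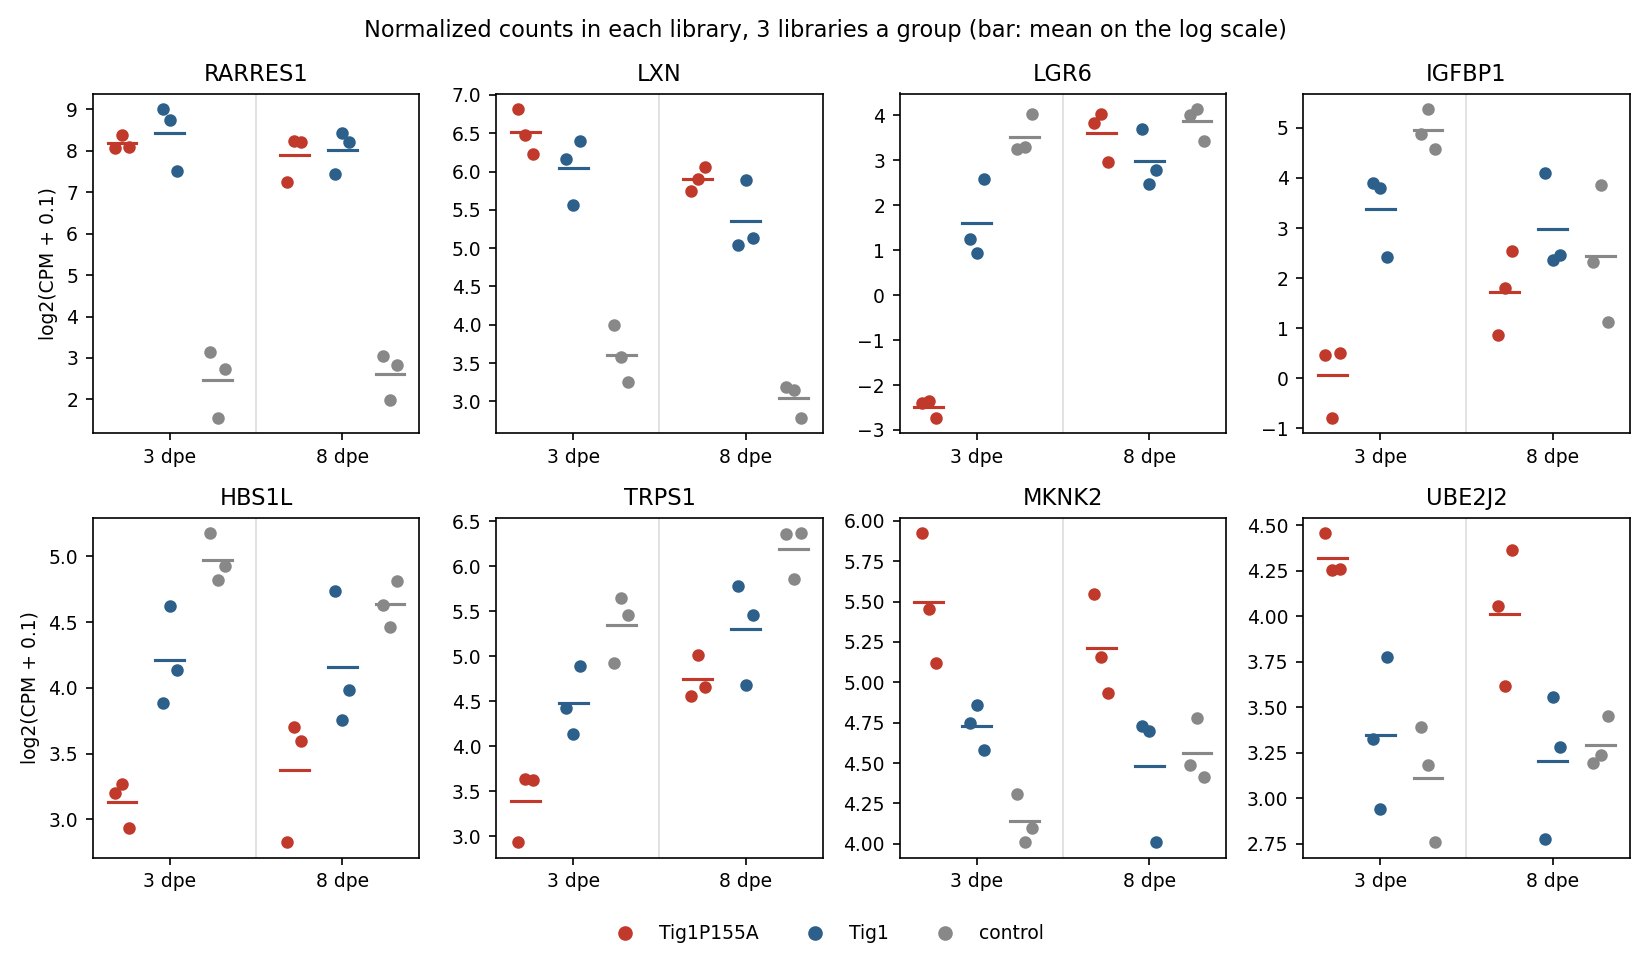
Level of RARRES1, LXN, LGR6, IGFBP1, HBS1L, TRPS1, MKNK2 and UBE2J2 in each library as log2(CPM + 0.1), with Tig1P155A, Tig1 and control cells from left to right at 3 and 8 dpe. LGR6 is near the floor in the Tig1P155A libraries of 3 dpe and not in those of 8 dpe, whereas MKNK2 and UBE2J2 stand higher in Tig1P155A than in Tig1 cells at both times. All genes but RARRES1 and LXN were picked for a small p in these libraries.

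The genes of proximal and distal identity were described next. PROD1, the proximal surface protein of the salamander limb, had 85.45, 61.1 and 35.81 CPM in Tig1P155A cells and 92.73, 38.23 and 77.15 CPM in Tig1 cells at 3 dpe. At 8 dpe it had 2.867, 9.099 and 8.529 CPM in Tig1P155A cells and 7.76, 9.895 and 2.434 CPM in Tig1 cells, against 0 to 4.713 CPM in control cells over both times. The forms overlapped at each time, and the average difference was -0.08 (-1.16 to 0.99), which allows up to 2.23-fold. In the fit of the 12 libraries alone, the interval was -0.875 to 0.731, which lies within 2-fold. Of 10 tested genes of proximal identity, 0 had an unadjusted p under 0.05. Of the 4 with at least 4 CPM, 2 were held within 2-fold, or 3 in the fit of the 12 libraries alone. MEIS1, a homeobox factor of the proximal limb, averaged 2.0 CPM and was bounded only to 8.72-fold.

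HoxA13, the distal Hox gene from whose locus the reporter is made, had 9.009, 8.735 and 2.194 CPM in Tig1P155A cells and 28.85, 11.08 and 3.127 CPM in Tig1 cells at 3 dpe. In the libraries of 8 dpe, it had 29.58, 40.39 and 18.48 CPM in Tig1P155A cells and 20.75, 11.86 and 16.65 CPM in Tig1 cells. The forms overlapped at both times, with differences of -1.13 (-2.34 to 0.08) at 3 dpe and 0.84 (-0.35 to 2.04) at 8 dpe. These have opposite signs, and neither time alone was held within 2-fold. Their average was -0.14 (-0.99 to 0.71), so the bound of the average was 1.99-fold. In the fit of the 12 libraries alone, the interval of the average was -1.14 to 0.857. The other distal genes were bounded more loosely. HoxD13 differed by -1.13 (-2.51 to 0.26) and LHX9 and LHX2, LIM factors of the distal limb bud, by -0.44 (-1.85 to 0.97) and -0.48 (-1.73 to 0.77), while MSX2, a homeobox factor of the distal mesenchyme, differed by 0.12 (-0.90 to 1.13). As for HoxA13, the averages of HoxD13, LHX9 and LHX2 joined differences of opposite signs. HoxD13 differed by -2.44 (-4.48 to -0.41) at 3 dpe and 0.19 at 8 dpe. LHX9 differed by -1.77 and 0.89, and LHX2 by -1.48 and 0.52. None passed the adjusted threshold at either time. The list median was -0.499 at 3 dpe and 0.608 at 8 dpe, beside -0.0653 and -0.0317 over all genes. Of the 18 tested genes of the distal and Hox list, 2 were higher and 2 lower at an unadjusted p under 0.05 (11.1% each). Over all genes tested, 1.29% were higher and 5.63% lower at that threshold. Of the 6 list members with at least 4 CPM, 1 was held within 2-fold, or 0 in the fit of the 12 libraries alone.

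The study names 33 genes for this experiment, of which 28 were tested. They were chosen for the comparison of overexpressing with control cells in these libraries, and are no independent evidence here. For the difference between the forms, 20 were lower and 8 higher in Tig1P155A cells, 1 had an unadjusted p under 0.05, which was IGFBP1, and 0 passed the adjusted threshold. Of the 28, 6 were held within 2-fold and 19 within 4-fold. SDC3, a syndecan, had 360.1, 336.3 and 536.4 CPM in Tig1P155A cells and 520.6, 382.0 and 573.7 CPM in Tig1 cells at 3 dpe, and its average difference of -0.22 (-0.61 to 0.17) allowed 1.53-fold. CDKN1B, the inhibitor p27 of the cell cycle, differed by 0.02 (-0.43 to 0.48) and BCL11A, a zinc finger factor, by -0.01 (-0.49 to 0.47). FSTL1 and TNC, secreted proteins of the mesenchyme, differed by -0.58 (-1.30 to 0.13) and -0.48 (-1.26 to 0.29).

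In the signalling families, 1 gene passed the test at 3 dpe, which was LGR6 of the Wnt list, and 0 passed at 8 dpe or for the average. At an unadjusted p under 0.05, which 1.29% of all genes met as higher and 5.63% as lower in Tig1P155A cells, 0 members of the 4 families were higher. Lower were 3 of 19 tested FGF genes (15.8%), 2 of 28 BMP and TGF-beta genes (7.14%), 5 of 36 Wnt genes (13.9%) and 2 of 14 hedgehog genes (14.3%). The median difference of members with at least 4 CPM was -0.146 for the FGF list, -0.206 for BMP and TGF-beta, -0.079 for Wnt and -0.712 for hedgehog, beside 0.00282 over all genes of that level. The most abundant member of each list was held within 2-fold, except CTNNB1 of the Wnt list, which allowed 2.12-fold. SPRED1, a feedback inhibitor of the FGF pathway, had 290.9 to 359.4 CPM in Tig1P155A cells and 310.6 to 372.6 CPM in Tig1 cells at 3 dpe and differed by -0.01 (-0.41 to 0.39). TGFBI, a matrix protein induced by TGF-beta, differed by -0.17 (-0.62 to 0.28). CTNNB1, which encodes beta-catenin, differed by -0.46 (-1.08 to 0.16), and SUFU, a repressor of hedgehog signalling, by 0.37 (-0.08 to 0.82).

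Of the members with at least 4 CPM, the lowest differences were those of FGFR1 in the FGF list, of FST, the secreted antagonist follistatin, in the BMP list at -1.03 (-2.39 to 0.33), of LGR6 in the Wnt list and of BOC in the hedgehog list. FGFR1, a receptor for FGF ligands, had 1.183, 7.295 and 4.643 CPM in Tig1P155A cells and 15.4, 25.79 and 7.267 CPM in Tig1 cells at 3 dpe; the highest Tig1P155A library stood just above the lowest Tig1 library. The values at 8 dpe were 31.3, 41.92 and 42.57 CPM in Tig1P155A cells and 63.34, 39.34 and 15.12 CPM in Tig1 cells, and its average difference was -0.94 (-1.76 to -0.12). BOC, a co-receptor for hedgehog ligands, had 0, 3.696 and 0.6122 CPM in Tig1P155A cells and 6.79, 23.52 and 10.82 CPM in Tig1 cells at 3 dpe. At 8 dpe the groups overlapped, with 17.48 to 30.93 CPM and 8.711 to 67.85 CPM, and the average was -1.77 (-3.04 to -0.51). FGFR1, FST and BOC did not pass the adjusted threshold.

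Genes of the cell cycle did not pass the test. The mean of log2(CPM + 4) over the 44 tested mitosis genes differed by -0.317 at 3 dpe and 0.0945 at 8 dpe, with an average of -0.111 (95% interval -0.378 to 0.137, by inversion of an exact permutation of the libraries within times). Without replicate 3 of Tig1P155A at 3 dpe, the average was -0.0296. Of the 44, 0 were higher and 3 lower at an unadjusted p under 0.05 (6.82%, beside 5.63% of all genes). BUB1, a kinase of the spindle checkpoint, had 2.639, 3.744 and 1.122 CPM in Tig1P155A cells and 6.79, 18.05 and 13.6 CPM in Tig1 cells at 3 dpe and overlapped at 8 dpe, with 18.8 to 27.28 CPM and 14.67 to 27.37 CPM. CDC25B, the phosphatase that starts mitosis, differed by -0.09 (-0.53 to 0.36). For the 39 DNA replication genes the mean difference was -0.0842 (-0.341 to 0.147). Of the 35 with at least 4 CPM, 24 were held within 2-fold (68.6%, beside 62.3% of all genes of that level).

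Matrix and connective tissue genes had negative means with intervals that include 0. The mean over 24 collagen chains differed by -0.22 (-0.922 to 0.369), that over 36 other matrix genes by -0.213 (-0.683 to 0.192) and that over 18 connective tissue genes by -0.253 (-0.801 to 0.245). Without replicate 1 of Tig1 at 8 dpe these means were 0.0373, -0.0254 and -0.0937, so that of the collagens turned its sign. Over all libraries left out in turn, the lowest were -0.401, -0.327 and -0.367. COL1A1 had 104.8, 196.9 and 224.0 CPM in Tig1P155A cells and 190.4, 398.5 and 128.4 CPM in Tig1 cells at 3 dpe. By 8 dpe it had 657.2, 406.5 and 404.1 CPM in Tig1P155A cells and 2579, 318.3 and 652.8 CPM in Tig1 cells, so that a single library lay far above the other 5. Replicate 1 of Tig1 at 8 dpe held a summed 12325 CPM of the connective tissue list, where Tig1P155A libraries of that time held 4516 to 5396 CPM and the lowest Tig1 library 3897 CPM. COL3A1, a fibrillar collagen, differed by -0.10 (-0.78 to 0.58).

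Genes of epidermis, muscle and cartilage were high in single libraries of the forms. KRT5, a keratin of basal epidermis, had 5.915, 1.392 and 1.071 CPM in Tig1P155A cells and 7.655, 58.71 and 6.253 CPM in Tig1 cells at 3 dpe, and 83.59, 0.526 and 0 CPM against 1200, 3.742 and 0.5124 CPM at 8 dpe. TTN, the giant protein of the sarcomere, had 304.1, 9.888 and 1.575 CPM in Tig1P155A cells and 11.73, 7.532 and 1459 CPM in Tig1 cells at 8 dpe. COL11A2, a cartilage collagen, had 0.091, 1.296 and 523.3 CPM in Tig1P155A cells and 4.195, 4.703 and 20.53 CPM in Tig1 cells at 3 dpe, and at 8 dpe 36.04 to 66.33 CPM and 35.89 to 620.7 CPM. HAPLN1, a link protein of cartilage, was highest in the same libraries. In control cells of 8 dpe, COL11A2 had 180.3, 451.0 and 760.2 CPM and HAPLN1 79.98, 224.6 and 376.4 CPM. Both were thus high in every control library of that time. KRT5 stood at 252.7 CPM in replicate 1 of the control cells of 8 dpe. Single libraries of both forms were thus high for epidermal, muscle or cartilage genes, and the intervals of the epidermal and muscle means were the widest of the lists. The mean over the 13 tested epidermal genes differed by -0.434 (-1.58 to 0.827), and that over 18 muscle genes by -0.325 (-1.32 to 0.612). At 3 dpe the epidermal mean was 2.5 to 2.692 in Tig1P155A libraries and 2.968 to 3.22 in Tig1 libraries. The forms were thus apart there, and control libraries of that time had 2.916 to 3.093. At an unadjusted p under 0.05, 4 of 13 epidermal genes were lower (30.8%) and 0 higher. Of 18 muscle genes, 4 were lower (22.2%) and 1 was higher (5.56%). Over all genes tested, 5.63% were lower and 1.29% higher. Leaving out each library gave -0.779 to -0.0614 for the epidermal mean, the lowest without replicate 1 of Tig1P155A and the highest without replicate 1 of Tig1 at 8 dpe. For the muscle mean it gave -0.614 without replicate 1 of Tig1P155A and 0.0127 without replicate 3 of Tig1 at 8 dpe.

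**Figure D4:**
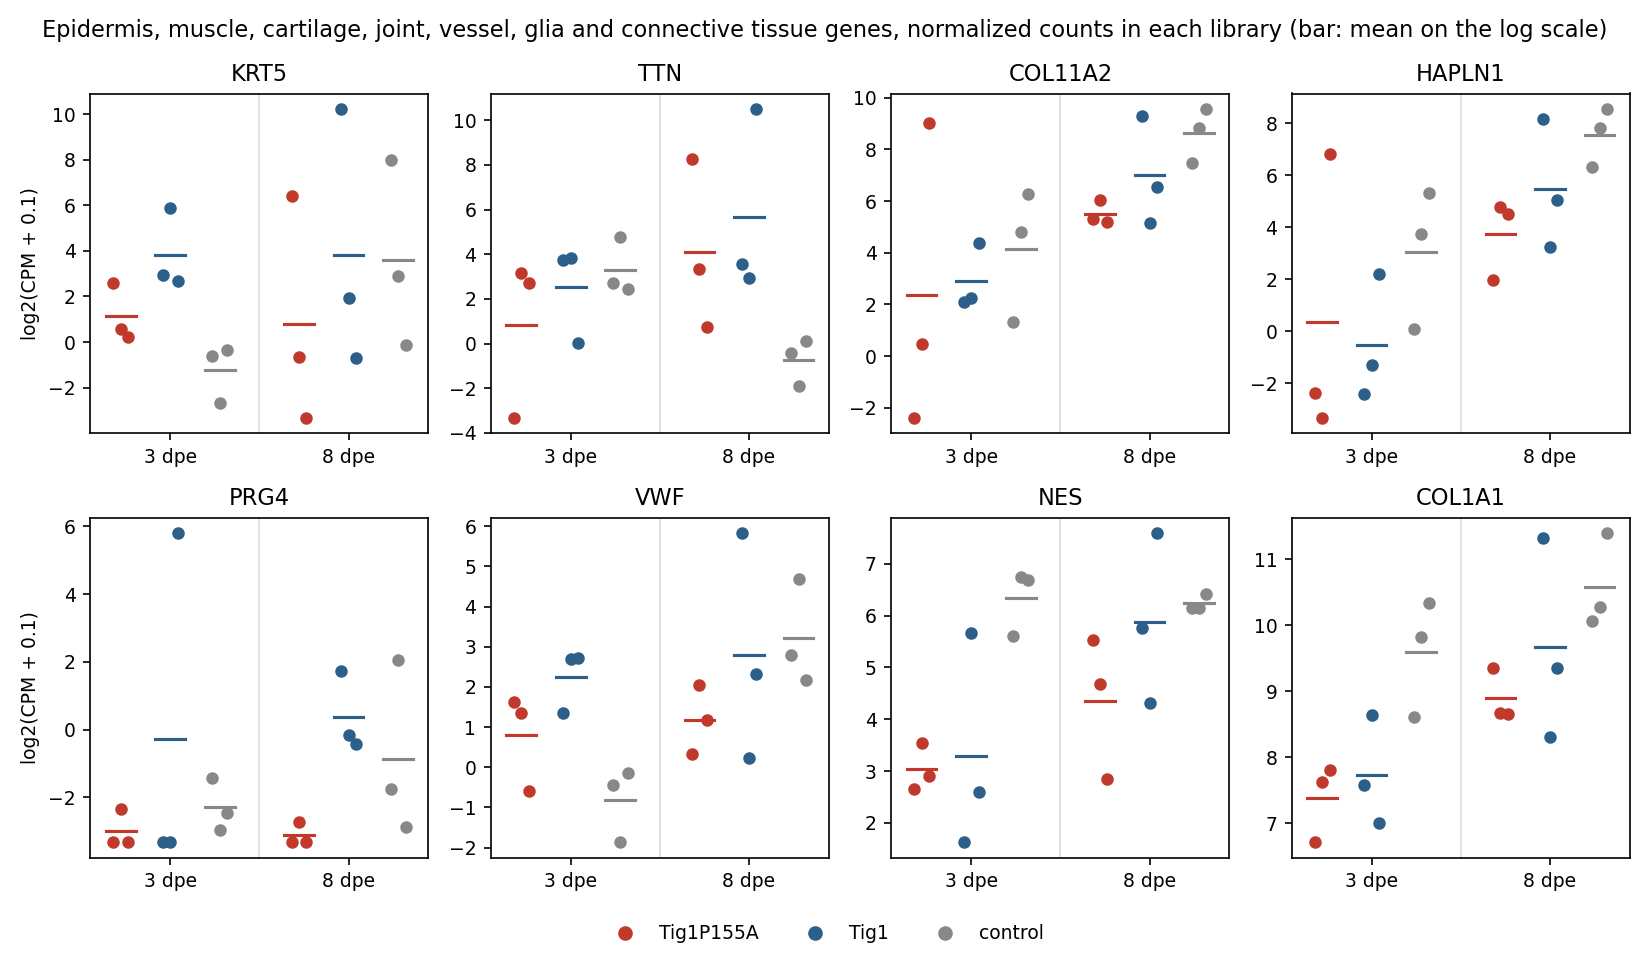
Level of KRT5, TTN, COL11A2, HAPLN1, PRG4, VWF, NES and COL1A1 in each library as log2(CPM + 0.1), with Tig1P155A, Tig1 and control cells from left to right at 3 and 8 dpe. Single libraries stand out for some genes, such as KRT5 at 1200 CPM in replicate 1 and TTN at 1459 CPM in replicate 3 of Tig1 at 8 dpe. COL11A2 and HAPLN1 are high in all control libraries of 8 dpe, and NES and COL1A1 in all control libraries of both times.

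Myeloid and lysosomal genes were high in the cells of both forms, and 0 passed the test between them. MARCO, a scavenger receptor of macrophages, had 4693, 2767 and 3501 CPM in Tig1P155A cells and 3236, 2770 and 2275 CPM in Tig1 cells at 3 dpe. For 8 dpe the values were 1495, 1851 and 1684 CPM in Tig1P155A cells and 1528, 1844 and 1510 CPM in Tig1 cells, against 0 to 30.7 CPM in control cells over both times. The forms overlapped at both times, with an average of 0.22 (-1.12 to 1.56). In the fit of the 12 libraries of the forms alone, which leaves out the control libraries, the interval was -0.147 to 0.619. Of the 20 myeloid genes with at least 4 CPM, 3 were held within 2-fold in the fit of all 18 libraries and 18 in the fit of 12. Over all genes of that level the fits held 62.3% and 60.7%. The mean over the myeloid list differed by 0.21 (-0.064 to 0.534), with 0 of 21 genes at an unadjusted p under 0.05.

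CTSB, a lysosomal cathepsin, had 4644, 6754 and 5763 CPM in Tig1P155A cells and 6098, 3664 and 5901 CPM in Tig1 cells at 3 dpe. Later, at 8 dpe, it had 1631, 3739 and 4327 CPM in Tig1P155A cells and 2582, 4953 and 3233 CPM in Tig1 cells. The forms overlapped at both times and the average of -0.01 (-0.55 to 0.53) allows at most 1.47-fold. Of the 42 lysosomal genes with at least 4 CPM, 35 were held within 2-fold (83.3%, beside 62.3% of all genes of that level). The mean of the lysosomal list differed by 0.0684 (-0.308 to 0.457). The mean over complement genes differed by -0.00867 (-0.159 to 0.128) and that over chemokine and cytokine genes by -0.000767 (-0.145 to 0.147). At an unadjusted p under 0.05, 0 members were higher. Lower were 3 of 25 complement genes (12%) and 3 of 28 chemokine and cytokine genes (10.7%), beside 5.63% of all genes. CXCL12, a chemokine, differed by -2.52 (-3.97 to -1.06, adjusted p = 0.690 with edgeR and 0.0382 with DESeq2). At 3 dpe it had 0, 12 and 0 counts in Tig1P155A cells and 48, 42 and 6 in Tig1 cells.

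Most genes of the housekeeping families were held within 2-fold. Of the nuclear genes of oxidative phosphorylation with at least 4 CPM, 46 of 49 were held within 2-fold (93.9%), of ribosomal protein genes 51 of 59 (86.4%) and of microtubule genes 18 of 21 (85.7%). Over all genes with at least 4 CPM the share was 62.3%. It was 80.9% for genes of 16 to 64 CPM and 86.9% for those of 64 to 256 CPM. The families were not compared with genes of like level, so the shares are no trait of the families. ATP5F1B, a subunit of ATP synthase, had 611.3, 764.5 and 815.7 CPM in Tig1P155A cells and 669.4, 689.8 and 618.0 CPM in Tig1 cells at 3 dpe, and 469.4, 541.7 and 581.7 CPM against 656.2, 613.4 and 450.0 CPM at 8 dpe. The forms overlapped at both times, and the average of 0.02 (-0.32 to 0.36) allowed 1.28-fold. The mean over 29 microtubule genes, the family of tubulin itself, differed by -0.00985 (-0.0944 to 0.084), the narrowest interval of the lists.

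In all, 38 lists with 1017 tested genes were described. The interval of the list mean included 0 in 38 of 38 lists and lay within 1 either way in 36, all but the epidermal and muscle lists. This mean is taken over log2(CPM + 4), in which genes of low level count for little, so its interval bounds that quantity and not the level of a member. The members of the endothelial list, for example, had a median fitted difference of -1.63, beside a list mean of -0.254 (-0.717 to 0.0304). The list mean was lower in Tig1P155A cells in 26 lists and higher in 12, and lists share libraries and some genes. For the distal and Hox list the mean was 0.0499 and the median of its members with at least 4 CPM -0.291. The microtubule list had a median of 0.0907, so mean and median differed in sign in these lists. They also did for the complement list (-0.00867 and 0.0904), the chemokine and cytokine list (-0.000767 and 0.0531) and the matrix proteinase list (-0.0609 and 0.00346).

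**Figure D5:**
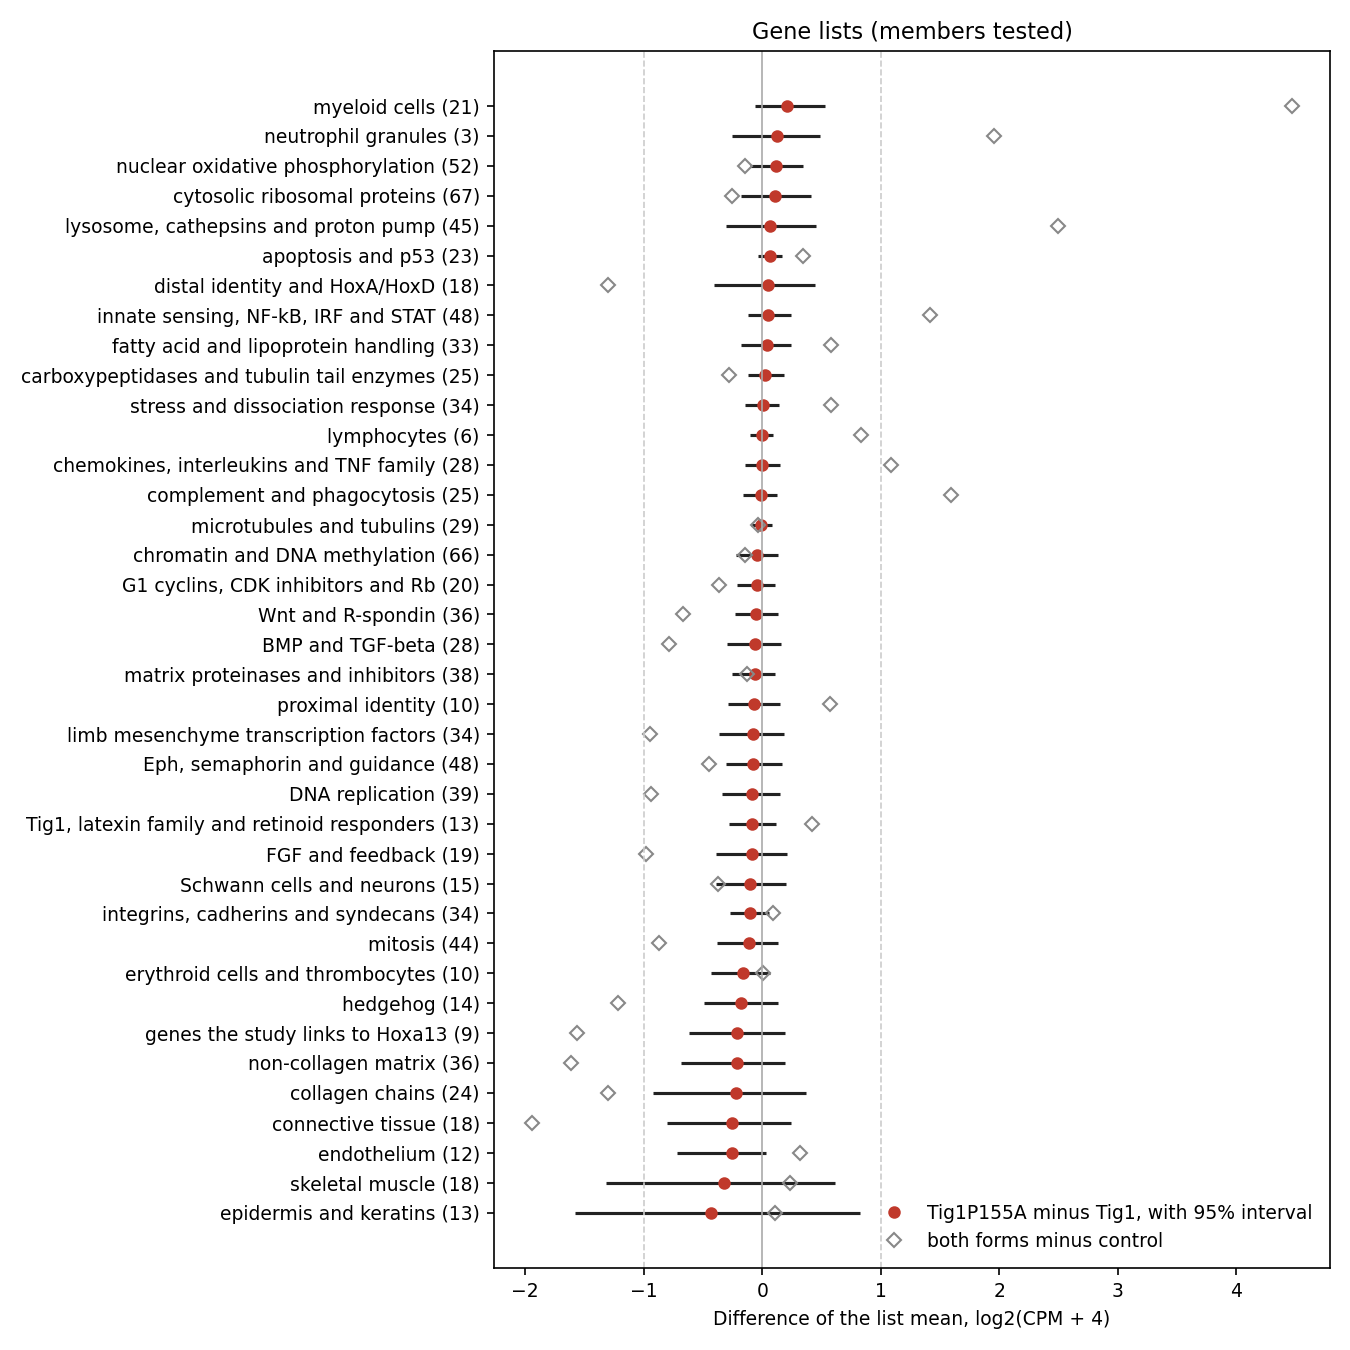
Mean difference of log2(CPM + 4) over the tested members of each of 38 gene lists, Tig1P155A minus Tig1, with its 95% interval by exact permutation, and the difference of both forms from control cells as grey diamonds. All 38 intervals include 0, while the diamonds reach 4.47 for the myeloid list and -1.94 for the connective tissue list.

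The bound was then set against the difference of both forms from control cells, which includes any difference between GFP-positive and GFP-negative cells. Of genes with at least 4 CPM, 6419 were called for that difference. Its median size was 1.57 on the log2 scale, against a median bound of 0.865 and a median size of 0.189 for the difference between the forms. For 5318 of the 6419 (82.8%), the farthest end of the interval of the form difference was smaller than the estimated difference from control cells. Among 2474 genes with at least 4-fold, the number was 2349 (94.9%), with medians of 3.31, 1.18 and 0.239. Both sets were chosen by their difference from control cells in the same fit, which favours a bound below it. These shares therefore describe the sets and test nothing. The form bound held within 2-fold in 61.0% of the 6419 genes and in 64% of the 4990 that were not called. Of the 2474 genes with at least 4-fold, 934 were held within 2-fold (37.8%). SPRED1 stood at 2.69 against control cells and -0.01 between the forms, LXN at 2.65 and 0.47, FSTL1 at -2.72 and -0.58, and HoxA13 at -2.56 and -0.14.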

How the data were processed

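RNA of sorted axolotl blastema cells was sequenced after Smart-seq2 amplification. The authors aligned reads with STAR 2.7.6a to AmexG_v6.0-DD with curated HoxA and HoxD models and counted them per gene with featureCounts 2.0.1; per the labels, bcl2fastq 2.19.1 was also used. The values the authors deposited are raw counts per gene and library, without normalization. The strand setting is not given in the sources used here. All 18 libraries were fitted together in R 4.3.3 with edgeR 4.0.16 (TMM, quasi-likelihood, 1 mean per group, 12 residual degrees of freedom), keeping each gene that reached 0.5 CPM in 1 library or more. P-values were adjusted by Benjamini-Hochberg over all 25377 genes tested. The 92 ERCC rows held 0 counts and were left out. Intervals of 95% came from the standard error and the t quantile, and can differ from the quasi-likelihood p, since 849 intervals excluded 0 against 1756 unadjusted p under 0.05. List means used log2(CPM + 4), with intervals by inversion of the exact permutation over 400 assignments within times. DESeq2 1.42.0 and voom of limma 3.58.1 were alternatives. Files were read with the R package data.table (version 1.17.8), and figures drawn with Python 3.11.15 and matplotlib 3.10.9.

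Named genes were those the paper names for this experiment, those called, the 10 with the smallest p in each direction among genes with a symbol and at least 4 CPM, and members of the lists by level and by difference. The genes and lists were chosen with earlier results of these data known. Replicate numbers were not taken as pairs.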

Additional observations from a re-analysis of the deposited data

Results flagged for a closer look

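LGR6 was singled out because its difference between the forms was not the same at both times by the interaction test. The difference, Tig1P155A minus Tig1, was -5.31 at 3 dpe and 0.60 at 8 dpe, and its change between the times was 5.91 ± 0.886 on the log2 scale (SE, edgeR quasi-likelihood test, adjusted p = 0.0356). The Tig1P155A libraries of 3 dpe held 1, 2 and 1 counts, against 53, 12 and 70 counts in the Tig1 libraries. The interaction passed in 4 of 12 fits that left out a library, namely replicate 1 or 2 of Tig1 at 3 dpe, replicate 1 of Tig1 at 8 dpe or replicate 3 of Tig1P155A at 8 dpe, and in 5 of the 9 alternatives that kept all libraries of the forms (adjusted p 4.57e-06 to 0.999). Its value lay between 5.22 and 6.37 in the fits that left out a library.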

How the results depend on the processing

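The calls at 3 dpe, at 8 dpe, for the average and for the change between times numbered 432, 226, 512 and 266 with every gene of at least 1 count, 96, 23, 70 and 32 with DESeq2, and 1503, 1169, 1756 and 1235 without adjustment of the p-value. The fit of the 12 libraries alone and voom gave 0 calls at 3 dpe and 0 for the change between times. The cause was not tested. With library size alone as scaling, 0 genes were called for the change, and the median distance from estimate to interval end was 0.823. Intervals within 1.5-fold numbered 1873 and within 4-fold 13470. Leaving out each library gave 0 to 2 calls at 3 dpe, 0 at 8 dpe, 0 for the average, 0 to 1 for the change, 5908 to 7127 genes held within 2-fold and a median distance of 0.644 to 0.721. With the replicate number as a block, 0 genes were called for the change and 1 at 3 dpe; residual correlations of same-numbered libraries lay between -0.271 and 0.173, so the numbers were not taken as pairs. Of 360 results for the 20 genes with the smallest p, 353 kept direction and side of the threshold, 7 passed it with DESeq2 and 0 reversed. These 360 did not include the fit of every gene with at least 1 count, a stricter filter or the fit without the mitochondrial genes. The fit of every gene with at least 1 count called LGR6 for the average (edgeR adjusted p = 0.000664). Of 624 results for lists, 620 moved by less than the replicate spread. Genes under 1 CPM could not be bounded to 2-fold at this depth. Fits without the mitochondrial genes and the splits by direction were chosen after seeing the data.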

Other observations

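Genes that differed between both forms and control cells were split by direction, after the data had been seen. Among genes with at least 4 CPM, the 3886 raised in overexpressing cells had a median difference between the forms, Tig1P155A minus Tig1, of 0.0691, and the 2533 lowered ones of -0.101. At 3 dpe the medians were 0.0858 and -0.15, and at 8 dpe 0.0415 and -0.038. The sets were chosen with the same libraries, and no test was made. Without replicate 1 of Tig1 at 3 dpe the median of the lowered genes was 0.0885 on average and that of the raised genes 0.139, and without replicate 1 of Tig1 at 8 dpe they were -0.00557 and 0.0138.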
